A study of Mus musculus with 4 samples.

Results

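Scx, Mkx, Tnmd, Thbs2, Thbs4 and Tnc were followed as genes of the tendon program in embryonic mouse knee tissue. They were listed by name as genes known from tendon, and are 6 of the 32285 genes counted. Scx and Mkx encode transcription factors, Tnmd encodes a membrane glycoprotein of tendon cells, and Thbs2, Thbs4 and Tnc encode matricellular proteins that are secreted into the matrix.

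Tendon cells of the limb arise from mesenchyme beside the cartilage anlagen. The basic helix-loop-helix factor Scleraxis (Scx) is switched on early in tendon progenitors, and Mohawk (Mkx), a homeobox factor, acts later and is needed for fibril growth. Tenomodulin (Tnmd) depends on Scx in tendon and serves as a marker of its differentiation, while the thrombospondins Thbs2 and Thbs4 and tenascin-C (Tnc) act in the assembly of collagen fibrils and in the adhesion of cells to matrix.

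Single-cell RNA-seq with a 3' droplet kit was run on the presumptive knee, dissected from mouse hindlimb anlagen after soft tissue had been rolled away, to ask how joint formation proceeds when glucose uptake is reduced. The 4 libraries were 1 each of E13.5 control embryos, E14.5 control embryos, E14.5 embryos of genotype Prx1cre;Glut1f/f;Glut3f/+ (labelled G1KO) and E14.5 embryos of genotype Prx1cre;Glut1f/f;Glut3f/f (labelled dKO, here DCKO). Controls carried no Cre, Prx1cre acts in limb bud mesenchyme, and the number of embryos pooled per library is not stated. Each condition had 1 library, so there were no replicates, and every 95% interval below covers counting error only. Where 4 values are listed, the order is E13.5 control, E14.5 control, G1KO, DCKO.

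The libraries held 100344565, 84188147, 97110697 and 91574038 UMIs (unique molecular identifiers, 1 per captured mRNA molecule). Kept cells had 200 to 6000 genes and no more than 10% mitochondrial UMIs, which left 12446, 9305, 11264 and 11305 cells with medians of 6176.5, 7279, 6757 and 6379 UMIs. Between 25 and 40 cell barcodes were shared by any pair of libraries. Of the kept cells, 11234, 8630, 10298 and 10786 were limb mesenchyme and its derivatives after cells with markers of muscle, endothelium, blood, nerve, skin or vessel wall had been set aside.

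The genes named in the genotypes did not follow the labels in a simple way. Slc2a1, which encodes the glucose transporter Glut1, stood at 50.03 CPM, the gene's part of the UMIs summed over the cells, in mesenchymal cells of the E13.5 control, 67.4 in the E14.5 control, 364 in G1KO and 437 in DCKO. It was thus higher in both libraries labelled as lacking it. Slc2a3, which encodes Glut3, stood at 5.20, 3.39, 4.31 and 2.07 CPM. Which exons the floxed alleles remove is not given, so UMIs from the 3' end of a transcript may not report a deletion. The mutant libraries are therefore named by their labels, and every direction between genotypes rests on those labels.

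The libraries also differed in sex. A UMI of Xist, the RNA of the inactive X chromosome, was found in 64.7%, 0.172%, 92.2% and 91.2% of kept cells, and a Y-linked transcript in 18.4%, 65.9%, 0.0355% and 0.0265%. The E14.5 control was thus nearly all male and both mutant libraries nearly all female. Sex and genotype cannot be told apart in the mutant comparisons. Of the members, Tnmd lies on the X chromosome, and an effect of sex on it was not tested.

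Cells were gated by marker genes that include none of the 6. Tendon-gated cells had UMIs of at least 2 of Kera, Fmod, Fibin, Htra3 and Cpxm2. Interzone-gated cells had Gdf5 with at least 2 of Osr2, Sfrp2, Creb5 and Tgfbi. Chondrocyte-gated cells had Matn1 and Acan with at least 1 of Col9a1, Col9a3 and Hapln1. Fibroblast-gated cells passed none of these gates and had at least 3 of Col1a1, Col1a2, Col3a1, Dcn and Lum, with Dcn or Lum among them. Cells passing more than 1 gate formed classes of their own.

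The tendon gate held 326, 597, 570 and 438 cells, which were 2.90% (95% Clopper-Pearson interval 2.60 to 3.23), 6.92% (6.39 to 7.47), 5.54% (5.10 to 5.99) and 4.06% (3.70 to 4.45) of mesenchymal cells. With this gate the share was highest in the E14.5 control, and no pair of intervals overlapped. The order depended on the gate. With a Kera UMI as the gate, and cells that also passed another gate left out, the shares were 1.12%, 0.545%, 0.738% and 0.881%, lowest in the E14.5 control, and with UMIs of Scx and Tnmd they were 0.552%, 1.08%, 1.505% and 0.788%, highest in G1KO. With none left out, 1.18%, 0.823%, 0.923% and 1.18% of mesenchymal cells had a Kera UMI. Cells that passed both the tendon and the chondrocyte gate numbered 110, 1025, 902 and 800, which is 0.979%, 11.9%, 8.76% and 7.42% of mesenchymal cells, and so outnumbered the tendon gate in each E14.5 library. Their median depths were 9499.5, 9965, 10524 and 9835 UMIs, they held 34.1, 16.1, 22.4 and 19.5 CPM of Scx, and they were kept apart. The gate is a loose one. Fibin was found in 96.3%, 95.3%, 92.5% and 94.7% of its cells but also in 93.8%, 92.5%, 91.5% and 89.3% of chondrocyte-gated cells. Kera, which encodes the proteoglycan keratocan of tendon and cornea, was found in 15.6%, 6.53%, 11.8% and 19.4% of tendon-gated cells. Fibin with Fmod alone accounted for much of it, as 60.7%, 77.7%, 64.0% and 64.2% of tendon-gated cells carried both.

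The labels give the tissue of all 4 libraries as interzone, the mesenchyme of the future joint. Interzone-gated cells made up 15.6%, 7.68%, 7.16% and 2.70% of mesenchymal cells, or 1749, 663, 737 and 291 cells. The chondrocyte gate held 1637, 3392, 3729 and 4940 cells and the fibroblast gate 2121, 718, 1401 and 1397. Cells that passed no gate made up 43.5%, 21.1%, 24.4% and 24.9% of mesenchymal cells. At E13.5 they held 39.8% of Scx, 30.5% of Mkx, 50.8% of Tnmd, 38.4% of Thbs2, 27.9% of Thbs4 and 33.2% of Tnc UMIs. Their part of the UMIs of all genes there was 33.2%.

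Scx was the transcription factor with the clearest order of levels. In tendon-gated cells it stood at 224 CPM (95% Poisson interval 207 to 242) in the E13.5 control, 279 (265 to 295) in the E14.5 control, 287 (272 to 303) in G1KO and 250 (233 to 268) in DCKO. In fibroblast-gated cells it stood at 111, 80.0, 78.6 and 70.5 CPM and in interzone-gated cells at 82.4, 70.2, 43.4 and 42.9. In chondrocyte-gated cells it stood at 17.95, 6.58, 7.74 and 6.12. The order chondrocyte, interzone, fibroblast, tendon held in each library, with the tendon interval apart from the others. In the E14.5 control alone, the interzone and fibroblast intervals overlapped (62.3 to 78.8 against 72.6 to 87.9). Scx lies on chromosome 15 (ENSMUSG00000034161, GRCm38, 76457452 to 76459458, plus strand).

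Mkx did not separate tendon from interzone as far. In tendon-gated cells it stood at 13.53 CPM (9.62 to 18.5), 40.5 (35.0 to 46.6), 32.3 (27.3 to 37.9) and 21.7 (17.0 to 27.4). In interzone-gated cells it stood at 14.2 (12.2 to 16.4), 36.1 (30.5 to 42.4), 17.7 (13.9 to 22.1) and 12.6 (7.88 to 19.0). The intervals of the tendon and interzone gates overlapped in both controls and in DCKO, and were apart in G1KO. Fibroblast-gated cells held 9.41, 10.6, 9.30 and 7.74 CPM, and chondrocyte-gated cells held 3.15, 2.66, 2.52 and 2.29. The fibroblast interval overlapped that of the tendon gate at E13.5 and that of the interzone gate in DCKO, and the chondrocyte gate was lowest with its interval apart in each library. The Mkx level of cells passing both the tendon and the interzone gate was 20.97, 61.8, 18.2 and 8.33 CPM, from 224, 210, 147 and 40 cells. That class was thus above either gate alone in the E14.5 control. Mkx lies on chromosome 18 (ENSMUSG00000061013, 6934518 to 7004780, minus strand).

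Tnmd was the member with the largest part of its mesenchymal UMIs in the tendon gate in each E14.5 library. It stood there at 6.59 CPM (3.97 to 10.3), 63.7 (56.8 to 71.3), 112 (102 to 122) and 75.5 (66.4 to 85.6). In fibroblast-gated cells it stood at 3.24, 14.503, 20.2 and 8.36 CPM. Interzone-gated cells held 6, 4, 1 and 6 UMIs of Tnmd in all, and chondrocyte-gated cells 10, 5, 27 and 16. The intervals of these last gates overlapped in both controls and in G1KO, and in DCKO the interzone interval overlapped that of the fibroblast gate. The tendon gate carried 10.3%, 59.6%, 56.1% and 57.3% of all Tnmd UMIs of the mesenchyme, against 3.68%, 6.71%, 5.66% and 3.96% of UMIs of all genes. Cells that passed no gate carried 50.8%, 12.7%, 13.4% and 16.9% of all Tnmd UMIs. At E13.5 the fibroblast and tendon intervals also overlapped (2.42 to 4.26 against 3.97 to 10.3). Tnmd lies on the plus strand of the X chromosome (ENSMUSG00000031250, 133850980 to 133865577).

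Thbs2, which encodes a thrombospondin that binds matrix and cell surface, was not highest in the tendon gate at E14.5. Tendon-gated cells held 21.2 CPM (16.2 to 27.2), 60.0 (53.2 to 67.3), 65.2 (58.0 to 73.0) and 67.9 (59.2 to 77.4). Fibroblast-gated cells held 20.2 (18.1 to 22.6), 93.9 (85.9 to 102), 91.9 (85.7 to 98.4) and 81.8 (75.6 to 88.3). The fibroblast gate was above the tendon gate with intervals apart in the E14.5 control and G1KO, while the intervals overlapped at E13.5 and in DCKO. Interzone-gated cells held 5.90, 21.2, 9.29 and 20.6 CPM and chondrocyte-gated cells 4.44, 8.96, 7.20 and 6.93, with overlapping intervals at E13.5 and in G1KO. Of all Thbs2 UMIs of the mesenchyme, 35.2%, 28.7%, 41.2% and 38.6% were in fibroblast-gated cells. Thbs2 lies on chromosome 17 (ENSMUSG00000023885, 14665500 to 14694235, minus strand).

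Thbs4, the thrombospondin of tendon and muscle attachment, had the order chondrocyte, interzone, fibroblast, tendon in each library. Tendon-gated cells held 23.2 CPM (18.01 to 29.5), 75.3 (67.7 to 83.5), 116 (107 to 127) and 132 (120 to 145), and fibroblast-gated cells held 19.1, 41.1, 38.6 and 26.3. Interzone-gated cells held 3.59, 11.5, 2.56 and 4.57 CPM, from 45, 47, 11 and 8 UMIs, and chondrocyte-gated cells held 0.965, 0.823, 1.92 and 0.877. At E13.5 the fibroblast and tendon intervals overlapped (17.0 to 21.4 against 18.01 to 29.5), and in G1KO so did those of the interzone and chondrocyte gates. The lowest of these levels are not told from background, as given for blood cells. Thbs4 lies on chromosome 13 (ENSMUSG00000021702, 92751590 to 92794818, minus strand).

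Tnc, which encodes the hexameric glycoprotein tenascin-C, was found across all gates and was lowest in interzone-gated cells in each library. Interzone-gated cells held 26.5 CPM (23.7 to 29.5), 68.9 (61.1 to 77.5), 31.6 (26.5 to 37.4) and 46.9 (37.3 to 58.2). Tendon-gated cells held 86.4 (76.0 to 97.8), 103 (94.0 to 112), 115 (106 to 126) and 107 (95.8 to 119), and fibroblast-gated cells 70.9, 102, 91.9 and 88.9. Chondrocyte-gated cells held 77.3 (73.0 to 81.8), 114 (110 to 118), 80.2 (77.3 to 83.1) and 58.6 (56.4 to 60.8). The highest gate exceeded the lowest only 3.26, 1.66, 3.65 and 2.28 times, and the highest was the chondrocyte gate in the E14.5 control and the tendon gate in the other libraries. In the E14.5 control the tendon interval overlapped those of both the chondrocyte and the fibroblast gate. At E13.5 the chondrocyte interval overlapped both of its neighbours, tendon and fibroblast, and in DCKO it overlapped that of the interzone gate. Chondrocyte-gated cells carried 25.2%, 48.5%, 46.9% and 52.1% of all Tnc UMIs of the mesenchyme. Tnc lies on chromosome 4 (ENSMUSG00000028364, 63959785 to 64047015, minus strand).

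**Figure D1:**
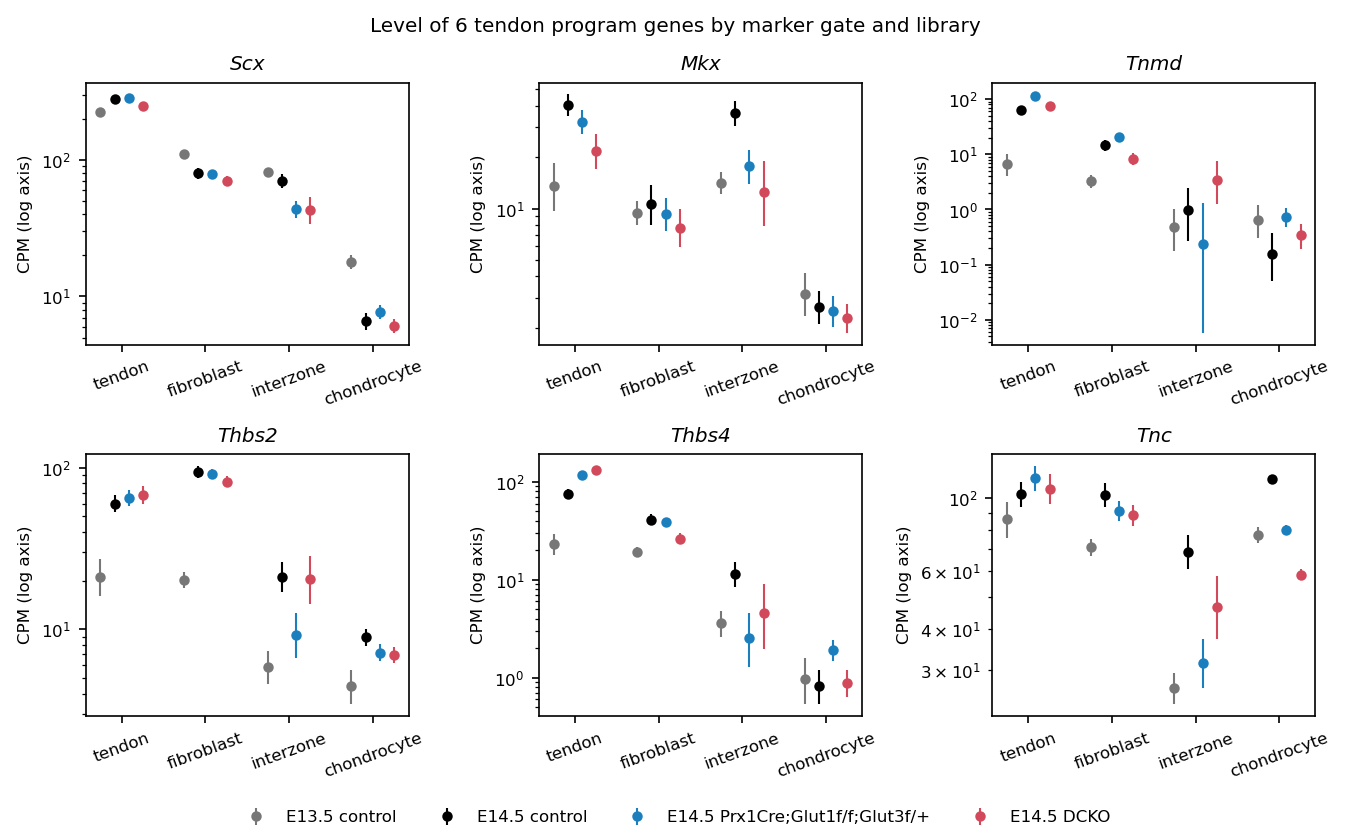
Levels of the 6 genes in marker-gated cells. Each panel is 1 gene, the vertical axis is CPM of summed UMIs on a log scale, the horizontal axis is the gate, the colours are the 4 libraries and the bars are 95% Poisson intervals. Scx stands at 224 to 287 CPM in the tendon gate and at 6.12 to 17.95 CPM in the chondrocyte gate, while Tnc stays between 26.5 and 115 CPM over all gates.

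Free RNA from broken cells gives UMIs in cells that do not express a gene, so the 6 were also read in blood cells. Erythroid-gated cells (106, 56, 26 and 23 cells with medians of 7622.5, 9356.5, 7950.5 and 7818 UMIs) held 9.64 CPM of Scx at E13.5 and 0 UMIs in the other libraries, where 3 UMIs would have been 5.27, 11.3 and 14.3 CPM. Macrophage-gated cells (43, 67, 101 and 77 cells with medians of 1993, 2649, 5992 and 2694 UMIs) held 15.0, 10.6, 9.37 and 14.7 CPM of Scx. The Scx level of chondrocyte-gated cells at E14.5 (6.58, 7.74 and 6.12 CPM) was below that of macrophages in all 3 libraries, from 6, 8 and 7 macrophage UMIs, and is not told from background by them. In the E14.5 control it was just above what 0 UMIs in erythroid-gated cells allow (up to 6.48 CPM). At E13.5 it was 17.95 CPM against 15.0, with overlapping intervals.

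The same holds for the lowest levels of other members. Tnmd in macrophage-gated cells stood at 0, 0, 4.68 and 6.31 CPM, from 4 UMIs in G1KO and 3 in DCKO, and the 0 UMIs of the E14.5 control allow up to 6.54 CPM. Its UMIs in interzone- and chondrocyte-gated cells are therefore not told from background in any of the libraries. Thbs4 in macrophage-gated cells stood at 0, 1.77, 0 and 6.31 CPM, above the chondrocyte level in the E14.5 control and DCKO. The interzone level of Thbs4 in DCKO, 4.57 CPM (1.97 to 9.01), was also below it, and that in G1KO, 2.56 (1.28 to 4.57), overlapped the interval that 0 UMIs allow there (up to 4.32), so neither is told from background. Mkx in chondrocyte-gated cells of the E14.5 control (2.66 CPM against 5.32 in macrophages) and Thbs2 in those of DCKO (6.93 against 12.6) were below the macrophage level. In DCKO the interzone intervals of Mkx and Thbs2 overlapped those of macrophages as well. Tnc reached 28.1 CPM in erythroid-gated and 30.1 CPM in macrophage-gated cells of the E14.5 control, against 68.9 CPM in its lowest mesenchymal gate. Of erythroid-gated cells there, 1 cell held all 9 Tnmd UMIs. At E13.5, the 0 UMIs of Mkx, Tnmd, Thbs2 and Thbs4 in macrophages allow up to 13.8 CPM of each. The tendon intervals of Mkx (9.62 to 18.5) and Tnmd (3.97 to 10.3) reach below that, as does the interzone interval of Mkx. The levels of Tnmd, Thbs2 and Thbs4 in interzone- and chondrocyte-gated cells are also below it. So are those of Mkx in fibroblast- and chondrocyte-gated cells and of Tnmd in fibroblast-gated cells. Macrophages therefore do not tell these from background. In erythroid-gated cells of that library 0 UMIs of Tnmd allow up to 3.95 CPM. In the E14.5 libraries the tendon interval of each member was above that of macrophages.

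Within each library, the tendon gate was then set against the sum of the other gated mesenchyme, which is the interzone, chondrocyte and fibroblast gates together. The Scx level of those other cells was 69.7, 22.5, 23.4 and 16.4 CPM, and the log2 ratio of tendon over other was 1.69 (95% interval 1.56 to 1.81), 3.63 (3.51 to 3.75), 3.62 (3.50 to 3.73) and 3.93 (3.79 to 4.07). The Mkx level of the others was 8.56, 7.04, 5.03 and 3.38 CPM, with log2 ratios of 0.68 (0.15 to 1.14), 2.52 (2.25 to 2.79), 2.68 (2.38 to 2.98) and 2.69 (2.27 to 3.08). Both transcription factors were thus higher in tendon-gated cells than in this sum in each library. At E13.5 the interzone gate alone held the most Mkx, at 14.2 CPM, with an interval that overlapped that of the tendon gate. The other cells were a different mix in each library, with 1637, 3392, 3729 and 4940 chondrocyte-gated cells beside 1749, 663, 737 and 291 interzone-gated ones, so these ratios are not compared between libraries.

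The Tnmd level of the others was 1.53, 2.12, 4.15 and 1.58 CPM, and its log2 ratios were 2.13 (1.29 to 2.86), 4.91 (4.56 to 5.27), 4.75 (4.51 to 4.99) and 5.58 (5.23 to 5.95). For Thbs4 the others held 8.24, 7.16, 8.48 and 4.60 CPM, and the log2 ratios were 1.504, 3.39, 3.78 and 4.84. Tnmd and Thbs4 had ratios above 3 on the log2 scale in each E14.5 library. The Thbs2 ratios were 1.02, 1.49, 1.54 and 1.92, against 10.5, 21.3, 22.4 and 17.97 CPM in the others. Tnc differed little, with log2 ratios of 0.52 (0.32 to 0.70), −0.07 (−0.21 to 0.06), 0.56 (0.43 to 0.69) and 0.77 (0.61 to 0.93) against 60.4, 108, 78.0 and 62.5 CPM. In the E14.5 control Tnc did not differ beyond counting error, while with TMM factors it was −0.21 with its interval below 0.

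A gene was called where it reached 20 CPM and 20 UMIs in one of the compared sums and differed at least 2-fold. A gene can pass this filter through the group where it is high, so counts of called genes are given as a description only. At E13.5, 3 of the 4 members that passed this filter were called higher in the tendon gate (Scx, Thbs2, Thbs4), against 0.312% of 6419 genes, and Mkx and Tnmd did not pass it. In the E14.5 control 5 of 6 were called higher, all but Tnc, against 3.4% of 6316 genes. G1KO gave 5 of 6 against 3.45% of 6173 genes, and DCKO 5 of 6 against 5.96% of 6053 genes, again all but Tnc. The 6 are known tendon genes and the gate uses tendon markers, so a count above the background was built into the choice.

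The median log2 ratio of the 6 members was 1.26, 2.96, 3.15 and 3.31, and that of the genes tested 0.02, 0.06, 0.09 and 0.12. Scaling by TMM factors moved all ratios of this comparison by −0.14, −0.16 and −0.24 in the E14.5 libraries and turned no direction. The size depended on the gate. With at least 3 of the 5 markers required, the medians were 2.80, 3.53, 3.90 and 4.32 (19, 83, 83 and 71 cells), and with cells of more than 1 gate counted as tendon they were 0.55, 1.58, 1.55 and 1.68.

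Both control libraries were compared for the question of which genes of the program differ with age. In tendon-gated cells 4 members were higher at E14.5 by more than 2-fold. The log2 ratio of E14.5 over E13.5 was 3.24 (2.61 to 4.03) for Tnmd, whose E13.5 level rests on 19 UMIs and is not told from that of macrophages, 1.69 (1.32 to 2.09) for Thbs4, 1.57 (1.08 to 2.12) for Mkx and 1.49 (1.10 to 1.93) for Thbs2. The E13.5 level of Mkx is not told from that of macrophages either. Scx and Tnc were higher by less, at 0.32 (0.18 to 0.46) and 0.25 (0.03 to 0.48). Of all genes tested, 2.92% of 6536 were called higher. Mkx and Tnmd reached the filter in the E14.5 library alone, so nothing is read from the count of 4.

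The median of the members was 1.53 and that of the genes tested −0.08. This size depended on the gate, and the stricter gates hold few cells at E13.5. The median was 0.80 when Fibin was dropped from the markers (31 tendon-gated cells at E13.5) and 0.25 when 3 of the 5 markers were required (19 cells), and Thbs2 then had a log2 ratio of −0.08. With Kera alone as the gate it was 2.28. Tnmd had log2 ratios of 2.35 to 5.22 under the alternatives within a tendon gate that gave it a value and 1.60 over all mesenchymal cells, while sex also differed between these libraries. Thbs4 turned to −0.25 where cells were thinned to 2000 UMIs before gating.

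Outside the tendon gate the age difference took another shape. In interzone-gated cells Scx was lower at E14.5 (log2 ratio −0.23, −0.43 to −0.04), while Mkx was higher at 1.35 (1.02 to 1.67), Thbs2 at 1.84 (1.38 to 2.31) and Tnc at 1.38 (1.15 to 1.61). The E13.5 levels of Mkx and Thbs2 there are not told from those of macrophages. Thbs4 had 1.67 (1.05 to 2.30), but its interval overlapped that of macrophages at both ages, so no direction is read from it. Mkx, Thbs2 and Tnc were called higher, 3 of the 4 members that passed the filter, against 3.05% of 6580 genes. Mkx and Thbs2 reached the filter at E14.5 alone. In fibroblast-gated cells Scx was again lower, at −0.47, and Thbs2 (2.21, 2.01 to 2.42) and Thbs4 (1.10, 0.84 to 1.36) were called higher, 2 of 4 against 2.48% of 6460 genes, with Thbs4 reaching the filter at E14.5 alone. Tnmd did not pass the filter there, with a log2 ratio of 2.16 (1.63 to 2.70) from 51 and 78 UMIs. Its E13.5 level there is not told from that of macrophages.

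In chondrocyte-gated cells the Scx ratio was −1.45 (−1.71 to −1.18) on the log2 scale, but the level was told from that of macrophages at neither age, so no direction is read from it. Tnc was higher there at 0.56 (0.47 to 0.66), and TMM moved the ratios of this gate by 0.14. Scx was therefore higher with age in the tendon gate and lower in the interzone and fibroblast gates. When cells of more than 1 gate were counted as tendon, its ratio in the tendon gate was −0.57. Over all mesenchymal cells, Scx stood at 87.1 CPM at E13.5 and 50.3 at E14.5.

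**Figure D2:**
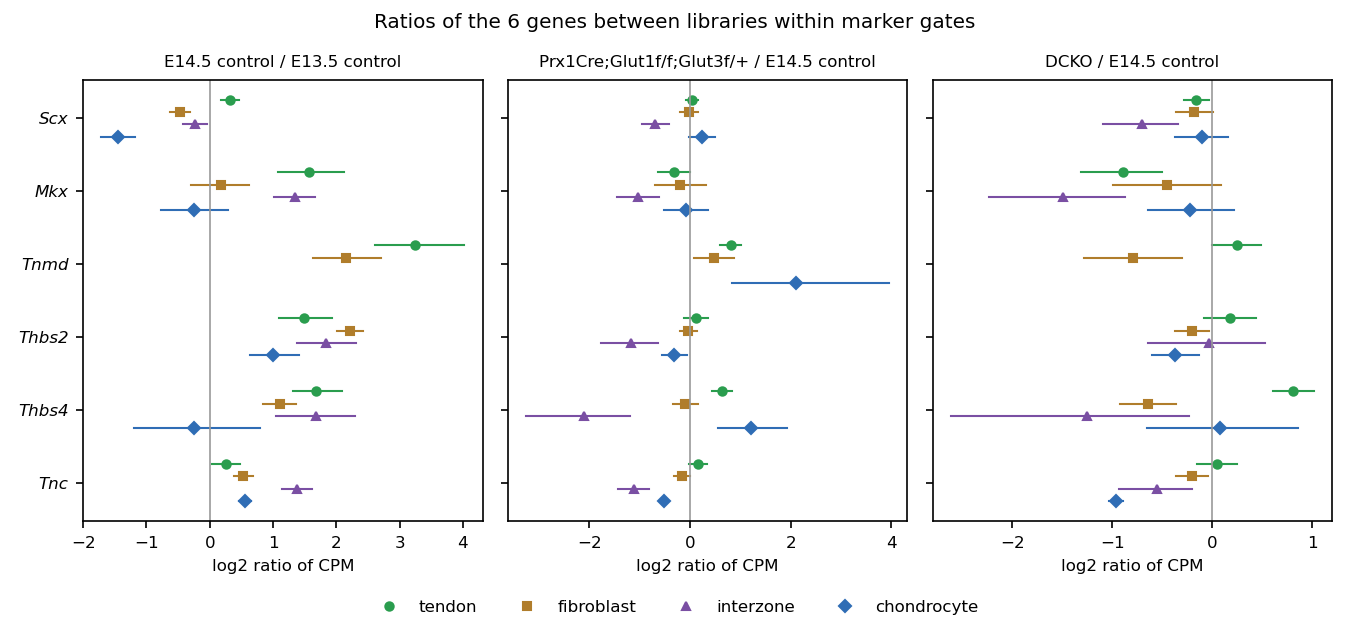
Ratios between libraries within gates. The horizontal axis is the log2 ratio, the vertical axis lists the 6 genes, the colours are the 4 gates, and the 3 panels are E14.5 over E13.5 control, G1KO over E14.5 control and DCKO over E14.5 control, with 95% intervals for counting error as bars. With age, Tnmd reaches 3.24 in the tendon gate, and in both mutant panels Thbs4 lies above 0 in the tendon gate (0.63 and 0.81) and below 0 in the interzone gate. No direction is read from the Thbs4 interzone ratios, as the levels there are not told from those of macrophages.

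The mutant libraries were compared with the E14.5 control to see how the program stood where glucose transporter genes were targeted. Both comparisons use the same control library, so their ratios share its counting error and are given side by side. In tendon-gated cells Scx had log2 ratios of 0.04 (−0.07 to 0.15) in G1KO and −0.16 (−0.29 to −0.03) in DCKO. Mkx had −0.33 (−0.65 to −0.01) and −0.89 (−1.31 to −0.50). By these labels Mkx was lower in DCKO. In G1KO its interval ended just under 0, and TMM factors, which moved the tendon ratios by 0.083 in G1KO and 0.072 in DCKO, carried that end across 0. The same factors left Scx at −0.09 in DCKO, no longer beyond counting error, and put Scx in G1KO at 0.12 with its interval just above 0.

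Among the differentiation and matrix genes, Tnmd had log2 ratios of 0.81 (0.60 to 1.02) in the library labelled G1KO and 0.25 (−0.00 to 0.49) in that labelled DCKO. Thbs4 had 0.63 (0.43 to 0.83) and 0.81 (0.61 to 1.02). Thbs2 had 0.12 (−0.12 to 0.36) and 0.18 (−0.08 to 0.44), and Tnc had 0.16 (−0.02 to 0.34) and 0.05 (−0.15 to 0.25). Thbs4 was thus higher in both, Tnmd was higher in G1KO beyond counting error, and Thbs2 and Tnc were not told apart from the control. With TMM factors Tnmd in DCKO (0.32) and Tnc in G1KO (0.25) also had intervals above 0. None of the 6 was called 2-fold higher in either library, where 0.128% of 6249 genes and 0.208% of 6262 genes were.

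The median of the members was 0.14 in G1KO and 0.12 in DCKO, and that of the genes tested −0.07 in both. The sign of these medians depended on the cells taken. For DCKO the median was −0.31 with UMIs of Scx and Tnmd as the gate, −0.14 with cells of more than 1 gate counted as tendon and −0.59 over all mesenchymal cells, and for G1KO it was −0.11 over all mesenchymal cells.

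Single members depended on the gate as well. Thbs4 in DCKO had ratios from 0.64 to 2.55 under the alternatives within a tendon gate, but −0.25 over all mesenchymal cells. In G1KO it was −0.20 with the gate of Scx and Tnmd and 0.13 to 1.72 otherwise. Mkx in DCKO was 0.11 with Kera alone as the gate and −1.38 to −0.11 otherwise. Mkx in G1KO was above 0 under 4 other gates, at 0.17 to 0.58, and −0.89 to −0.17 otherwise. Tnmd with Kera alone as the gate was −0.54 in DCKO and −0.08 in G1KO, and over all mesenchymal cells it was −0.46 in DCKO.

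Set against each other, the library labelled DCKO had less Mkx than that labelled G1KO in tendon-gated cells (log2 ratio −0.57, −1.0 to −0.15) and less Tnmd (−0.56, −0.79 to −0.34). Scx was also lower, by less (−0.20, −0.33 to −0.07). Thbs4 had 0.18 (−0.00 to 0.37), Thbs2 0.06 and Tnc −0.11, none beyond counting error. These libraries were alike in sex by their Xist and Y-linked shares.

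In interzone-gated cells Mkx, Scx and Tnc were lower in both mutant libraries, as labelled. Mkx had log2 ratios of −1.03 (−1.45 to −0.62) in G1KO and −1.49 (−2.24 to −0.87) in DCKO. Scx had −0.69 (−0.97 to −0.42) and −0.70 (−1.10 to −0.34). Both transcription factors were lower in both libraries beyond counting error. The Mkx and Thbs2 levels of DCKO in this gate are not told from those of macrophages, so the sizes of their DCKO ratios are not read. Tnc had −1.12 (−1.43 to −0.83) and −0.55 (−0.93 to −0.20). Thbs2 had −1.18 (−1.77 to −0.63) and −0.03 (−0.65 to 0.53), so that it was lower beyond counting error in G1KO and not in DCKO. Thbs4 had −2.12 (−3.26 to −1.20) and −1.25 (−2.62 to −0.23), with mutant levels not told from background. The interval of its control level also overlapped that of macrophages, so no direction is read from these ratios. TMM moved the G1KO ratios of this gate by 0.10.

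Of the 4 members that passed the filter in interzone-gated cells, Mkx, Thbs2 and Tnc were called lower in G1KO, against 0.57% of 6317 genes. Mkx and Thbs2 reached 20 CPM in the control alone, and with a filter of 50 CPM and 50 UMIs 1 member was called, so nothing is read from this count. In DCKO, Mkx was called lower, 1 of 4 against 2.1% of 6416 genes, and by the stricter filter none was. The median of all 6 members, with Tnmd and Thbs4 among them, was −1.15 in G1KO and −0.63 in DCKO. Over the 4 that passed the filter it was −1.07 and −0.63, and over the genes tested −0.10 and −0.08. The gate held 7.16% of mesenchymal cells in G1KO and 2.70% in DCKO, against 7.68% in the control, and the part of this in the ratios was not tested. Cells that passed both the tendon and the interzone gate had Mkx ratios of −1.74 (−2.46 to −1.12) in G1KO and −2.67 (−5.19 to −1.31) in DCKO, the last from 3 UMIs.

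In chondrocyte-gated cells Tnc was the only member that passed the filter. From 114 CPM in the E14.5 control it was lower in G1KO, at a log2 ratio of −0.51 (−0.58 to −0.44), and in DCKO, at −0.96 (−1.03 to −0.89). TMM moved the DCKO ratios of this gate by 0.19, which left Tnc at −0.77. In G1KO, Thbs4 (0.823 CPM in the control and 1.92 in G1KO, log2 ratio 1.20, 0.55 to 1.93) and Tnmd (5 and 27 UMIs, 2.11, 0.83 to 3.96) had larger ratios, between levels that are not told from those of macrophages. In fibroblast-gated cells Tnmd had 0.47 (0.09 to 0.88) in G1KO and −0.79 (−1.29 to −0.30) in DCKO, and Thbs4 had −0.09 (−0.34 to 0.16) and −0.64 (−0.92 to −0.36). Tnmd was thus higher in one and lower in the other library, from 178 and 67 UMIs against 78 in the control. Its DCKO level in fibroblast-gated cells is not told from that of macrophages.

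Summed levels do not say whether the members were in the same cells. The share of tendon-gated cells with a UMI was 54.3%, 53.4%, 47.5% and 39.0% for Scx, against 6.98%, 5.97%, 2.97% and 5.19% of macrophage-gated cells. Median depths of the tendon-gated cells were 7078, 6891, 7080 and 6327.5 UMIs. To set depth aside, each cell was thinned to 2000 UMIs in expectation, which left out 2, 11, 3 and 5 shallower tendon-gated cells. The Scx share was then 26.7%, 28.7%, 27.1% and 23.0%.

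The other members were rarer. Tnmd was detected in 3.37%, 10.7%, 18.4% and 13.2% of tendon-gated cells, and in 0.876%, 5.98%, 10.2% and 7.06% after thinning. Thbs4 was detected in 8.59%, 13.1%, 20.0% and 16.9%, and in 3.63%, 6.91%, 10.7% and 11.5% after thinning. Both shares were lowest at E13.5. Mkx was detected in 9.20%, 21.8%, 17.4% and 12.1% (2.76%, 7.67%, 5.36% and 3.84% after thinning). The Mkx share was thus lower in DCKO than in the E14.5 control with and without thinning. Thbs2 was detected in 11.0%, 25.5%, 29.5% and 27.2%, and Tnc in 38.0%, 45.2%, 43.0% and 41.6%.

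Tnmd cells were mostly Scx cells. Of mesenchymal cells with a Tnmd UMI, 72 of 114, 103 of 152, 180 of 280 and 93 of 148 also had a Scx UMI, which is 63.2% (53.6 to 72.0), 67.8% (59.7 to 75.1), 64.3% (58.4 to 69.9) and 62.8% (54.5 to 70.6). Of cells without Tnmd, 28.6%, 16.6%, 13.6% and 10.0% had Scx. After thinning to 2000 UMIs (1033, 547, 730 and 805 mesenchymal cells left out), 30.4%, 46.7%, 45.5% and 45.6% of Tnmd cells had Scx, against 13.7%, 7.59%, 6.30% and 4.60% of the others. The reverse was not so. Tnmd was found in 2.21%, 6.83%, 11.7% and 8.03% of Scx cells.

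The other members differed in how far they went with Scx. Thinned, Scx was found in 32.9%, 39.7%, 41.3% and 49.99% of Thbs4 cells, against 13.504%, 7.39%, 6.24% and 4.33% of the rest. It was found in 26.1%, 28.4%, 23.0% and 16.0% of Mkx cells, against 13.53%, 7.36%, 6.60% and 4.76%. Thbs4 cells were thus richer in Scx than Mkx cells in each library. For Thbs2 cells the shares were 17.1%, 14.7%, 13.8% and 11.4%, and for Tnc cells 14.8%, 8.16%, 8.46% and 7.24%. Of cells without Tnc, 13.7%, 7.87%, 6.62% and 4.58% had Scx, so that the gap was small in the controls and widest in DCKO.

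The pairs were also read within tendon-gated cells. There, thinned, Scx was found in 51.8%, 55.8%, 61.8% and 64.9% of Tnmd cells against 26.4%, 27.0%, 23.2% and 19.8% of the others. The E13.5 value rests on 11 Tnmd cells, 10 of them with Scx. For Thbs4 cells the shares were 51.9%, 70.1%, 65.0% and 68.4% against 25.7%, 25.6%, 22.6% and 17.1%. Pairing of Scx with Tnmd and with Thbs4 was thus also present within the gate. For Thbs2 it was not seen, with 25.6%, 28.1%, 30.4% and 18.9% against 26.7%, 28.8%, 26.7% and 23.5%.

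Tnmd and Thbs4 also went together. Of tendon-gated cells with Tnmd, 3 of 11, 42.2%, 50.5% and 58.6% had Thbs4, and after thinning 27.4%, 25.1% and 45.8% did in the E14.5 libraries, against 5.61%, 9.02% and 8.88% of cells without Tnmd. At least 3 of the 6 members were detected in 38, 151, 172 and 87 tendon-gated cells, which are 11.7%, 25.3%, 30.2% and 19.9%. The corresponding shares were 1.66%, 6.49%, 1.22% and 3.09% of interzone-gated, 6.18%, 12.4%, 9.28% and 6.37% of fibroblast-gated and 1.10%, 0.825%, 0.885% and 0.729% of chondrocyte-gated cells. After thinning, the shares of tendon-gated cells were 0.95%, 5.04%, 7.65% and 6.01%, so that DCKO was no longer below the E14.5 control. All 6 were found together in 1, 5, 9 and 2 tendon-gated cells, and none of them in 27.0%, 20.3%, 26.5% and 25.8%. The tendon gate thus mixes cells with several of the genes and cells with none detected.

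**Figure D3:**
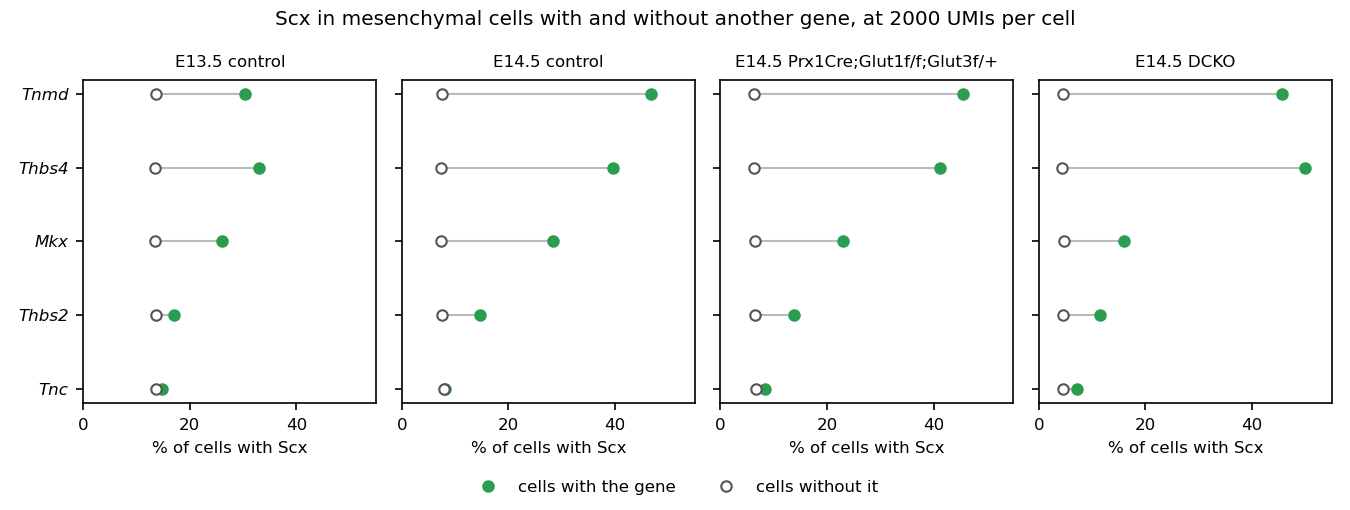
Share of mesenchymal cells with a Scx UMI among cells with and without another member, after thinning to 2000 UMIs per cell. The horizontal axis is percent of cells with Scx, the vertical axis lists Tnmd, Thbs4, Mkx, Thbs2 and Tnc, and each panel is 1 library. In the E14.5 libraries Scx is in 45.5% to 46.7% of Tnmd cells and in 4.60% to 7.59% of cells without Tnmd.

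Cells with UMIs of both Scx and Tnmd, 72, 103, 180 and 93 in all, were then described. They made up 0.641%, 1.19%, 1.75% and 0.862% of mesenchymal cells, and 13.9%, 53.4%, 50% and 52.7% of them passed the tendon gate. Thbs4 in them stood at 36.3, 187, 174 and 334 CPM, Mkx at 31.4, 58.4, 62.1 and 36.0 CPM and Kera at 9.67, 54.4, 54.0 and 117 CPM. In these cells, too, the library labelled DCKO had more Thbs4 than the control (log2 ratio 0.84, 0.57 to 1.11) and less Mkx (−0.68, −1.38 to −0.04), and it had more Kera (1.09, 0.61 to 1.60). In that labelled G1KO, Thbs4 did not differ from the control (−0.10, −0.37 to 0.17). Matn1 in them stood at 78.6, 62.3, 184 and 92.5 CPM, highest in G1KO, and its part in these ratios was not tested.

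Kera cells were a different mix in each library. Of them 38.6%, 54.9%, 70.5% and 66.9% passed the tendon gate alone and 2.27%, 28.2%, 15.8% and 21.3% both the tendon and the chondrocyte gate. They held 54.6, 678, 262 and 347 CPM of Matn1 and 17.3, 293, 201 and 187 CPM of Acan, so that both chondrocyte markers were lower in the mutant libraries than in the E14.5 control. The part of this in the ratios of Kera cells was not tested. The 132, 71, 95 and 127 mesenchymal cells with a Kera UMI held Thbs4 at 31.0, 140, 239 and 319 CPM, with log2 ratios to the E14.5 control of 0.77 (0.45 to 1.10) in G1KO and 1.18 (0.88 to 1.49) in DCKO. The Mkx ratios in them were 0.96 (0.28 to 1.72) in G1KO and 0.33 (−0.39 to 1.11) in DCKO, and those of Scx 0.37 and 0.36. Tnmd in them stood at 6.37, 194, 207 and 140 CPM, with ratios of 0.09 (−0.21 to 0.40) and −0.47 (−0.79 to −0.15). At E13.5, Kera cells therefore held little Tnmd, and 50.8% of them passed the fibroblast gate.

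The other genes of tendon matrix and signalling were summarized from a list of 20, of which Col1a1, Col1a2, Col3a1, Dcn and Lum are also markers of the fibroblast gate. Of 15, 15, 15 and 16 that passed the filter, 0, 6, 8 and 11 were called higher in the tendon gate than in the other gated mesenchyme, beside 0.312%, 3.4%, 3.45% and 5.96% of all genes tested, and the median log2 ratios of the list were 0.34, 0.87, 1.04 and 1.27. Comp was called lower in each library and Sox9 in G1KO, beside 1.11%, 2.45%, 2.79% and 2.91% of all genes tested called lower. With age in the tendon gate, 6 of 16 were called higher, beside 2.92% of all genes tested. These were Col14a1 (14.9 and 89.3 CPM, log2 ratio 2.57, 2.13 to 3.07), Bgn (94.3 and 331 CPM, 1.81), Comp (6.24 and 21.8 CPM, 1.77), Col12a1 (111 and 370 CPM, 1.74), Col1a1 (487 and 1412 CPM, 1.53) and Col5a1 (117 and 250 CPM, 1.10). They encode fibril collagens, collagens that bind to fibrils, a proteoglycan and a thrombospondin. None of the list was called higher or lower in tendon-gated cells of either mutant library, of 15 in G1KO and 16 in DCKO. Of all genes tested there, 0.128% were called higher and 0.352% lower in G1KO, and 0.208% and 1.05% in DCKO. The highest of the list in tendon-gated cells of the E14.5 control, beside Col1a1, were Col1a2 (654 and 1285 CPM at the 2 ages, log2 ratio 0.97) and Col3a1 (931 and 1266 CPM, 0.44).

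In interzone-gated cells 9 of 16 genes of the list were called higher with age, beside 3.05% of all genes tested, among them Col14a1 (9.64 and 36.3 CPM, log2 ratio 1.91) and Col1a1 (221 and 652 CPM, 1.56). Dcn was called lower (32.9 and 12.9 CPM, −1.34), beside 1.28% of all genes tested. Lum was not called there (24.9 and 19.5 CPM, −0.35). Between genotypes as labelled, none of 15 was called in the interzone gate of G1KO, beside 0.0633% of all genes tested called higher and 0.57% lower. In DCKO Lum was called higher (19.5 CPM in the control and 75.4 in DCKO, log2 ratio 1.95) and Comp lower (20.2 and 9.14 CPM, −1.11), beside 0.483% of all genes tested called higher there and 2.1% lower. In the fibroblast gate of DCKO Dcn was called lower (503 and 228 CPM, −1.14), beside 0.521% of all genes, and in the chondrocyte gate Col12a1 (86.5 and 41.8 CPM, −1.05), beside 0.975%.

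Relatives of the members were mixed. Of Cnmd, Thbs1, Thbs3, Tnn and Tnxb, 2, 3, 3 and 3 passed the filter. None was called higher in the tendon gate than in the other gated mesenchyme. Cnmd was called lower in each E14.5 library, beside 2.45%, 2.79% and 2.91% of all genes tested. The intervals of Cnmd and Thbs1 lay below 0 in each library. Cnmd, which encodes chondromodulin and is the closest relative of Tnmd, stood at 84.3, 132, 121 and 185 CPM in tendon-gated and 320, 772, 560 and 446 CPM in chondrocyte-gated cells. Its log2 ratios of tendon over other gated mesenchyme were −0.85, −2.22, −1.84 and −1.08. Thbs1 also had negative ratios, at −0.38, −0.85, −0.66 and −0.51, and Comp, a cartilage thrombospondin, had −3.31, −3.11, −3.40 and −4.09. Thbs3 had 0.09 (−0.38 to 0.49), 0.39 (0.12 to 0.65), 0.61 (0.36 to 0.84) and 0.66 (0.36 to 0.93), and so had the direction of Thbs2 and Thbs4 in the E14.5 libraries. Cnmd, Thbs1 and Comp were therefore lower in tendon-gated cells than in the other gated mesenchyme in each library. In the same comparison Tnmd, Thbs2 and Thbs4 were higher. Against the fibroblast gate alone Thbs2 was lower in the E14.5 libraries, with overlapping intervals in DCKO. The E13.5 Tnmd level of the tendon gate is not told from that of macrophages. Tnn and Tnxb, relatives of Tnc, were at 6.42 CPM or less in tendon-gated cells. In the E14.5 libraries Tnn had log2 ratios of 0.83, 0.83 and 1.53, from 28, 21 and 21 UMIs in the tendon gate, and Tnxb had 1.52, −0.14 and 1.19, from 12, 4 and 3.

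Patterns over gates and libraries were compared by Pearson's r of log2(CPM + 10) over 53 gate-by-library points, which share libraries and depth and are not independent. Among members, Tnmd and Thbs4 had the highest r (0.816), then Thbs2 and Thbs4 (0.793), Scx and Thbs4 (0.760) and Scx and Mkx (0.740), while Tnmd and Tnc had the lowest (0.240). Of 9208 genes, those most like Scx were Lpar1 (0.867), Palld (0.851) and Phldb2 (0.834), and those most like Mkx were Htra1 (0.889), Khdrbs2 (0.883) and Lgr5 (0.878). Abi3bp and Spon2 were most like Tnmd (0.856 and 0.854), and Abi3bp was also among the 3 most like Thbs2 (0.921) and Thbs4 (0.836). Thbs2 was further like Aspn (0.916) and the gate marker Col1a1 (0.889), Thbs4 like Zfp185 (0.840) and Spon2 (0.831), and Tnc like Pcolce (0.879), Tmem263 (0.861) and P4ha3 (0.860).

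Scx binds E-boxes, the 6-base motif CANNTG, which reads the same way on both strands. Promoter entries were matched for Tnmd, Thbs2, Thbs4 and Tnc, and not for Scx and Mkx. Those of Tnmd, Thbs4 and Thbs2 are shown because, among the matched members, these had the highest r with one another. Each run is the 250 bases before the gene start in RefSeq (GRCm38.p6), printed 5′ to 3′ on the gene's strand with each CANNTG in capitals, at chrX:133850758-133851007 (plus) for Tnmd, chr13:92794819-92795068 (minus) for Thbs4 and chr17:14694263-14694512 (minus) for Thbs2.
Tnmd: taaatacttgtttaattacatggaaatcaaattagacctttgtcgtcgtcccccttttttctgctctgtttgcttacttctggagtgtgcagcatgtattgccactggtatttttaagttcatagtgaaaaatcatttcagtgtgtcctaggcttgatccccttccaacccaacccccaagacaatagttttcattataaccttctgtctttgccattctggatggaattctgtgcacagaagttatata
Thbs4: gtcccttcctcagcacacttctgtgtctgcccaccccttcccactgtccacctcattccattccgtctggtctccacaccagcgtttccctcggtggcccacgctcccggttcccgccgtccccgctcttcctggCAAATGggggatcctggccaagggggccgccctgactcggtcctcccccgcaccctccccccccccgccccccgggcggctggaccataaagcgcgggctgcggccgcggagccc
Thbs2: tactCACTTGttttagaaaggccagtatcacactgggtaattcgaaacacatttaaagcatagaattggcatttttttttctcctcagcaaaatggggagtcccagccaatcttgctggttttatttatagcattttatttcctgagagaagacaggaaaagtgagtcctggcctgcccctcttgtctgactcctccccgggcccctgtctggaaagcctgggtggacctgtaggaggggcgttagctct
In GENCODE the Tnmd gene begins inside its window, at 133850980. No CANNTG was in the Tnmd window, 1 was in that of Thbs4 (at −115) and 1 in that of Thbs2 (at −246), and the pair of Tnc entries held 2 and 3. Of 32851 RefSeq promoter windows of this length, 66.2% held at least 1, with a median of 1. The forms CAGATG and CATCTG, which are the same site on opposite strands, were in none of the Tnmd, Thbs4, Thbs2 and Tnc windows and in 14.4% of all. A match describes letters only.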

How the data were processed

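The authors made 3' droplet libraries, processed them with Cell Ranger and Seurat version 3 on mm10 per the labels, and deposited a count of UMIs per gene and cell without normalization (Cell Ranger 6.1.2 in the file header). Of 32285 identifiers, 32158 (99.6%) were matched to GENCODE M21. Members and gene lists were chosen with earlier results of these data known.

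Kept cells had 200 to 6000 genes and at most 10% mt- UMIs. Doublets were kept. Cells with at least 2 markers of blood, vessel, muscle, nerve or skin lineages were set aside, and the others were gated by markers without clustering. UMIs were summed per gate and library and scaled to CPM. CPM carry exact Poisson intervals, shares Clopper-Pearson intervals and ratios exact conditional intervals, all at 95%. Log2 ratios used a prior count of 0.5, and a sum of 0 was taken at 3 counts. With 1 library per condition there was no test. Thinned shares are exact expectations at 2000 UMIs per cell.

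All 6 members are named. Of the other tendon genes, the 3 with the highest CPM in tendon-gated cells of the E14.5 control, those past 2-fold between conditions (examples with age outside the tendon gate) and the relatives of the members are named, and of the genes most like each member the 3 with the highest r (genes with at least 20 CPM in a point, points with at least 50 cells). Sox9 and Kera were named after their values were seen. Alternatives covered the gate, the cell filter, doublets, thinning, the mean of CPM over cells, TMM factors and the call filter.

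Python 3.11.15 was used with numpy 2.4.6, scipy 1.17.1, pandas 2.3.3, scanpy 1.11.5 and matplotlib 3.10.9, and edgeR 4.0.16 in R 4.3.3 for TMM factors.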

Additional observations from a re-analysis of the deposited data

Results flagged for a closer look

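Thbs4 differed between gates in the sign of its mutant ratios. In tendon-gated cells it was higher than in the E14.5 control in both mutant libraries, as labelled (log2 ratios 0.63 in G1KO and 0.81 in DCKO), and in interzone-gated cells the ratios were below 0 in both (−2.12 and −1.25). For DCKO the ratios of the gates lay 2.06 apart on the log2 scale. The interzone values rest on 47 UMIs in the control, 11 in G1KO and 8 in DCKO. The DCKO level there, 4.57 CPM, was below the 6.31 CPM of macrophage-gated cells. Neither it nor the G1KO level there is told from background, and the interval of the control level overlapped that of macrophages. No direction is therefore read from the interzone ratios. Over all mesenchymal cells Thbs4 in DCKO was −0.25. Both ratios share the control library, and the difference was not tested.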

How the results depend on the processing

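Values below are log2 ratios or medians of the 6 members, and the share is that of mesenchymal cells in the tendon gate. Of 60 member ratios of 2-fold or more, 593 values under alternatives were computed, and 27 of them changed sign. Of all 132 member ratios, which include those of the mutant libraries in the tendon gate, 118 of 1318 values did. The median of the members in the tendon gate over the other gated mesenchyme was above 0 in each library under every alternative, from 0.47 to 4.44. The 6 are known tendon genes and the gates use tendon markers or members, so this direction was built into the choice. Nothing is read from its holding. The median with age in the tendon gate was also above 0 under every alternative, while those of the mutant libraries were not. Where no construction is named, the cause was not tested. Depth limits all members but Scx and Tnc, which in single gates rest on few UMIs, and the tendon and interzone class of DCKO holds 40 cells.

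With at least 3 of the 5 tendon markers (19, 83, 83 and 71 cells) the medians of tendon over other mesenchyme were 2.80, 3.53, 3.90 and 4.32, the age median was 0.25, Thbs2 with age was −0.075 in the tendon gate, and the shares were 0.169%, 0.962%, 0.806% and 0.658%. With at least 2 of Kera, Fmod, Htra3 and Cpxm2, chosen after seeing the data since Fibin was in most chondrocyte-gated cells (31, 110, 125 and 92 cells), these medians were 2.58, 3.44, 3.63 and 4.26, the age median 0.80 and the shares 0.276%, 1.27%, 1.21% and 0.853%.

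With a Kera UMI as the tendon gate the medians were 3.95 in G1KO and 4.44 in DCKO, the age median was 2.28 and the shares were 1.12%, 0.545%, 0.738% and 0.881%. Tnmd with age in chondrocyte-gated cells was then 0.22, and in the tendon and interzone class of G1KO Mkx was 1.29, Thbs4 1.29 and Tnc 3.17.

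With UMIs of Scx and Tnmd as the gate, which leaves 4 members, the medians were 1.89 at E13.5, 2.57 in the E14.5 control and 2.90 in DCKO, the DCKO over control median was −0.31, and the shares were 0.552%, 1.08%, 1.505% and 0.788%. In the tendon and interzone class Mkx with age was −0.25, Tnc with age −0.62, Mkx in G1KO 0.58, Thbs4 in G1KO 1.61, Tnc in G1KO 0.26 and Tnc in DCKO 1.52. With at least 3 of the other 5 members as the gate, the medians were 3.84 in both G1KO and DCKO.

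With cells of more than 1 gate counted as tendon the medians were 0.55, 1.58, 1.55 and 1.68, the age median 0.85 and the DCKO over control median −0.14. Over all mesenchymal cells the age median was 0.67, that of G1KO −0.11 and that of DCKO −0.59. With the mean of CPM over single cells the medians of tendon over other mesenchyme were 2.40 in the E14.5 control, 2.60 in G1KO and 2.84 in DCKO.

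With cells thinned to 2000 UMIs before gating (94, 254, 243 and 179 tendon-gated cells) the medians were 0.47, 1.47, 2.01 and 2.86, the age median 0.73, the G1KO median 0.36 and the shares 0.872%, 2.999%, 2.41% and 1.74%. Thbs2 in tendon over other mesenchyme at E13.5 was −1.77, from 0 UMIs in the tendon gate, Thbs4 with age in the tendon gate −0.25 and Tnmd of G1KO in chondrocyte-gated cells −0.91. In the tendon and interzone class (24, 27, 19 and 3 cells) Mkx, Tnmd and Thbs2 with age were each −0.17, Thbs4 in G1KO was 0.51 and Mkx in DCKO 0.85.

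The share of Tnmd cells with Scx was 48.5% at E13.5, 57.8% in G1KO and 61.1% in DCKO at 4000 UMIs per cell, and 63.2%, 67.8%, 64.3% and 62.8% unthinned, since deeper cells show more genes. With 1000 to 6000 genes and at most 5% mt- UMIs the G1KO share of the tendon gate was 6.01%. The automatic threshold of Scrublet marked 0, 2, 0 and 0 cells, so the planned removal of doublets gave no value. Removal of the 8% of cells with the highest scores, chosen after seeing the data, left Tnmd in chondrocyte-gated cells at 0.050 with age and −0.20 in G1KO.

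A filter of 50 CPM and 50 UMIs, which tests fewer genes, called 7, 106, 108 and 168 genes higher in the tendon gate than in the other mesenchyme, against 20, 215, 213 and 361, and 1 member at E13.5 against 3. With age it called 98 genes against 191 in the tendon gate, 108 against 201 in the interzone gate (1 member against 3) and 76 against 160 in the fibroblast gate (1 member against 2). In the tendon gate it called 5 genes against 8 higher in G1KO and 7 against 13 in DCKO. In the interzone gate it called 20 against 36 lower in G1KO (1 member against 3) and 54 against 135 in DCKO (0 members against 1). For DCKO it also called 11 against 31 genes higher in the interzone gate, 30 against 56 lower in the chondrocyte gate and 6 against 32 lower in the fibroblast gate, with no member among those called by either filter.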

Other observations

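A large part of the UMIs of Tnmd and Thbs4 at E14.5 came from few cells. Mesenchymal cells with at least 5 Tnmd UMIs numbered 4, 32, 53 and 31 and held 11.9%, 57.8%, 55.8% and 55.7% of all its UMIs, with means of 1.62, 3.36, 3.26 and 2.91 UMIs per cell with any. For Thbs4 such cells numbered 20, 46, 65 and 63 and held 22.5%, 49.5%, 55.3% and 65.4%. Mkx was spread thinly, with 2, 8, 3 and 0 cells at 5 UMIs or more.

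Levels over the whole mesenchyme also carry the shares of the gates. From the E13.5 to the E14.5 control the log2 ratio of Scx was −0.79 as measured and −0.28 with the shares of the gates held at those of E13.5, a calculation chosen after seeing the data. For Mkx the values were 0.44 and 1.02, and for Thbs4 0.57 and 1.11. In DCKO over control, Scx had −0.74 as measured and −0.39 with the control's shares, Thbs4 had −0.25 and 0.25, and Tnmd −0.46 and 0.09. Tnc had −0.72 as measured and −0.71 with the control's shares.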
